A study of Mus musculus with 3 samples.

Results

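The regions described here are 2096 Seh1 peaks that crowd into 121 windows of the mouse autosomes, in each of which the IgG control had at most 2 peaks. They come from ChIP-seq, in which chromatin fragments pulled down by an antibody are sequenced, in wild-type mouse neural stem cells, taken from the cortex of newborn (P0) animals and kept proliferating on laminin in a medium with EGF and bFGF; the labels give growth medium as the treatment of every library. The series holds 3 libraries, all from such cells and 1 per group: Seh1 immunoprecipitate, IgG immunoprecipitate and input chromatin. Peak lists of Seh1 and IgG were used, and values of the input library were not analysed here. The labels do not say whether cells of several animals were pooled. Peak lists hold no expression level, so the labelled cell type could not be checked against its markers.

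The 19 autosomes were divided into bins of 1 Mb, each peak was counted in the bin of its centre, and bins with at least 15 Seh1 peaks and at most 2 IgG peaks were kept. The members are all Seh1 peaks in those bins, so they were selected on the peak counts of both libraries. They were 2096 of the 16113 Seh1 peaks listed, and of 15595 on autosomes. Of the 2403 autosomal bins with a peak in either list, 121 were selected, or 5.04%. Because those measured counts chose the bins, the density, spacing and low IgG count of the members are a description and not a result. With 1 library per group nothing has a replicate error. No test was run, and intervals in parentheses are 95% exact binomial (Clopper-Pearson) intervals that cover counting error only. Peaks of one bin are not independent of each other, so these intervals are too narrow. The score column of both lists is 0 at every peak and the read depth is unknown, so a peak is known here by its position, width and annotation alone.

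The nucleoporin Seh1 belongs to the Y-shaped scaffold complex of the nuclear pore and of GATOR2, a regulator of the growth kinase complex mTORC1. Several nucleoporins also bind chromatin, at the nuclear envelope or in the nucleoplasm. Mouse chromosomes alternate between gene-rich segments, in which short interspersed elements (SINEs) are frequent, and gene-poor segments rich in long interspersed elements (LINEs). A LINE of the L1 family is a retrotransposon with its own reverse transcriptase, and long terminal repeat (LTR) elements are relics of retroviruses. According to its title the study concerned repression of p21, whose gene Cdkn1a lies in the bin from 29 to 30 Mb of chromosome 17, which held 10 Seh1 and 5 IgG peaks and was not selected.

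Few members touched a promoter, and the promoter bases that they covered are shown first, because they are the regulatory sequence of these bins that could be read here. Promoter windows of 250 bases upstream of a start site were taken from RefSeq (build GRCm38.p6, the assembly of mm10). Of the 2096 members, 18 covered part of such a window, 6 of protein-coding genes and 12 of long non-coding RNAs. No like count is given for the other Seh1 peaks, so this number is a description only. The windows below belong to Ugt1a1 (bilirubin-conjugating enzyme; chr1:88211709-88211958, plus strand), Tagap (a GTPase-activating protein of T cells; chr17:7925750-7925999, plus strand), Ackr2 (a decoy receptor of chemokines; chr9:121898105-121898354, plus strand) and 2 long non-coding RNAs, C030007H22Rik (chr1:89406134-89406383, minus strand) and Gm30209 (chr8:124468238-124468487, minus strand). They read 5′ to 3′ on the gene's strand, and capitals mark the bases under the member peak.
Ugt1a1: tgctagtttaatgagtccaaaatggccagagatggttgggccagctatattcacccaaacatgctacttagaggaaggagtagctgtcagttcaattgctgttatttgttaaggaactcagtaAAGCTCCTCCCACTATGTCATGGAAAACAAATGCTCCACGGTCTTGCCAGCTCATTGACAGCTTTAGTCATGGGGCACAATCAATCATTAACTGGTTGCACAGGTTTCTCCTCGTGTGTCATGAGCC
Tagap: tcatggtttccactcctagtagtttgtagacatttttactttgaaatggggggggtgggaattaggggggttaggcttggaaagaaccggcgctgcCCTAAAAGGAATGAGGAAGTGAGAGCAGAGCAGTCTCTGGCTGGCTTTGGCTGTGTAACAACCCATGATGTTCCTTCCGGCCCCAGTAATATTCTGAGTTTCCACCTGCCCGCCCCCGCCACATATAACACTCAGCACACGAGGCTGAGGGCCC
Ackr2: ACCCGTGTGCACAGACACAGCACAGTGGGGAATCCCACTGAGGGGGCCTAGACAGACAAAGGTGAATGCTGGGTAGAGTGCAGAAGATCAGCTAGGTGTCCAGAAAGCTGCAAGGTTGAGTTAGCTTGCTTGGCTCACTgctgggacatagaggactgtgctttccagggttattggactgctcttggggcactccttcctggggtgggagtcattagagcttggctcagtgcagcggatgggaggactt
C030007H22Rik: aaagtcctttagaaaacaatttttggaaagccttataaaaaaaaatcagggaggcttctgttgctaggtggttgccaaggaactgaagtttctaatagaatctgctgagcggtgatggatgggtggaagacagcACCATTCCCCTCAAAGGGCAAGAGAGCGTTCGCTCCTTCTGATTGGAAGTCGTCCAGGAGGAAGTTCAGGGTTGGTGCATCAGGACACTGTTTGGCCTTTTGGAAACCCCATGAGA
Gm30209: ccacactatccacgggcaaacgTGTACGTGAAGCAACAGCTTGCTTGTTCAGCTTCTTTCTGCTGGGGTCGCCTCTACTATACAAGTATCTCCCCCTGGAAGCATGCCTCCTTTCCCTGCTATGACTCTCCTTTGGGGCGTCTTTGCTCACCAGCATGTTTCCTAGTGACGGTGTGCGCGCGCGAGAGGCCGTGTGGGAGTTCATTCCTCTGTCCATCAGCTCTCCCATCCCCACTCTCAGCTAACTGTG
The peak covered 127 bases of the Ugt1a1 window, 154 of the Tagap window, 139 of the Ackr2 window, 116 of the C030007H22Rik window and 228 of the Gm30209 window. The protein-coding windows shown had a GC content of 44.8% for Ugt1a1, 52.8% for Tagap and 55.2% for Ackr2, and held 2, 6 and 2 CpG dinucleotides. Across all autosomal protein-coding windows of the same length the median GC content was 56% and the median CpG count 10. The Ugt1a1 window lies inside the span of 8 other Ugt1a genes, which share their downstream exons.

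The selected bins held 15 to 27 Seh1 peaks each, with a median of 17, against a median of 5 over all bins. IgG peaks were 0 in 59 of them, 1 in 39 and 2 in 23. Such low counts were common: 1711 of all 2403 bins had at most 2 IgG peaks, and the median over all bins was 2. The fullest bin, on chromosome 17 from 13 to 14 Mb, had 27 Seh1 peaks and 1 IgG peak. At the edge of the rule, 33 bins had exactly 15 Seh1 peaks and 53 bins with few IgG peaks just missed it with 14. The share of peaks in a LINE was 2.83% in the former and 3.91% in the latter, and the share without any repeat was 74.5% and 70.1%. On the IgG side, 23 dense bins with 2 IgG peaks were taken and 15 with 3 were not; their LINE shares were 3.49% and 5.58%. A further 13 dense bins had over 3 IgG peaks, 446 in all, and 11.5% of their 390 Seh1 peaks lay in a LINE.

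**Figure D1:**
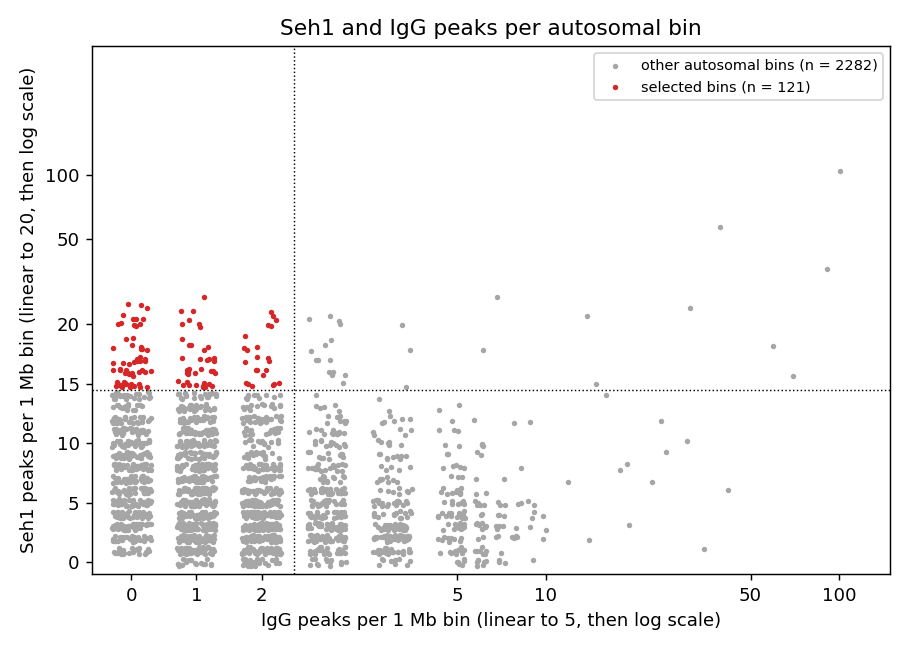
Each point is a 1 Mb autosomal bin, placed by its IgG peaks (x axis, linear to 5 and then logarithmic) and Seh1 peaks (y axis, linear to 20 and then logarithmic), with a small random offset; dotted lines mark the thresholds. The 121 selected bins (red) reach 27 Seh1 peaks, and the fullest of the 2282 other bins reaches 104.

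No member overlapped an IgG peak by 1 bp or more (0 of 2096, for which a limit of 3 counts allows a share of up to 0.143%). The rule on IgG peaks largely fixes this: of the 9817 Seh1 peaks in other bins with at most 2 IgG peaks 4 overlapped one (0.0407%), and of all 13499 other autosomal Seh1 peaks 58 (0.430%). The centre of an IgG peak lay within 10 kb of 30 members (1.43%), and the median distance to the nearest one was 500 kb. The 85 IgG peaks that remained in these bins differed in repeats from the members among which they lay: 13 of them, or 15.3% (8.40 to 24.7%), were in a LINE of the L1 family, against 47 members, or 2.24% (1.65 to 2.97%). Among all autosomal IgG peaks that share was 31.2%.

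The bins were spread over 18 of the 19 autosomes. Chromosome 5 had the most, 13 bins with 225 members, followed by chromosomes 8 and 9 with 10 each and chromosomes 2 and 17 with 9 each. As a share of its bins, chromosome 17 led with 9.78%, and chromosome 18, where no bin had more than 14 Seh1 peaks, had none. Of the 121 bins 40 touched another selected bin, in 16 runs, and 81 stood alone. The longest run covered 5 bins on chromosome 1 from 88 to 93 Mb, with 90 members, 2 IgG peaks and 60 protein-coding genes. Runs of 4 bins lay on chromosome 9 from 118 to 122 Mb (68 members, 1 IgG peak) and chromosome 12 from 104 to 108 Mb (65 members, no IgG peak), and a run of 3 on chromosome 2 from 178 to 181 Mb (63 members, 1 IgG peak). The 188 bins that bordered a selected bin without being selected had a median of 9 Seh1 peaks, against 5 in the other 2094 unselected bins.

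A zone near the distal chromosome ends held many of them. Mouse autosomes carry the centromere at the start of the numbering, and distance was measured from the end of the last annotated gene. Of the 57 bins centred 2 to 5 Mb from that point, 14 were selected (24.6%), on 10 chromosomes. Of the 46 bins closer than 2 Mb, 2 were selected (4.35%), and of the 901 bins more than 80 Mb away, 33 (3.66%). The bins closer than 2 Mb include some centred past the last gene, which the chromosome end can cut short. Their median was 3.5 Seh1 peaks, and what part shorter bins play in their low share was not tested. The background over all bins was 5.04%. The zone from 2 to 5 Mb had a median of 10 Seh1 peaks, 1 IgG peak and 7 protein-coding genes per bin, and the bins beyond 80 Mb had 4, 2 and 5. The distances were chosen after the values were seen, and what part the number of genes plays in this pattern was not tested.

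**Figure D2:**
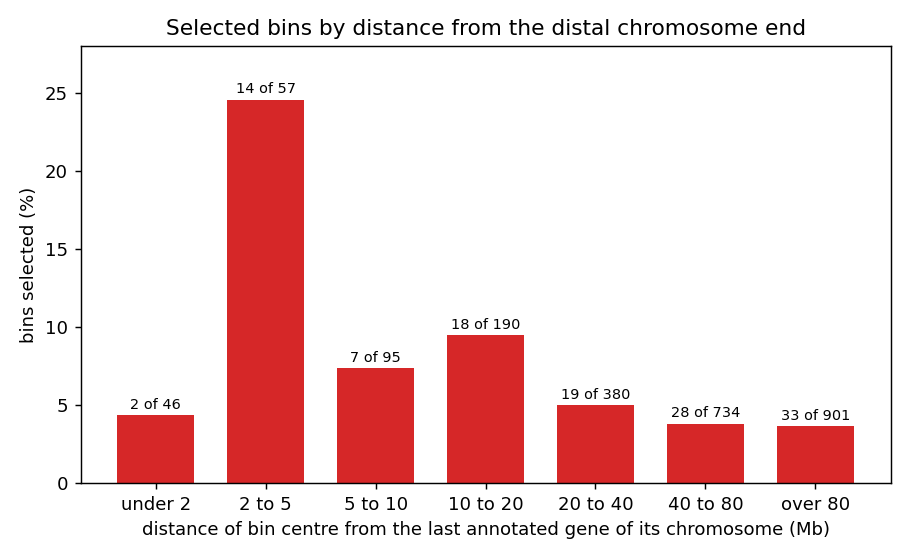
Bars give the share of 1 Mb autosomal bins (y axis, %) that were selected, by distance of the bin centre from the end of the last annotated gene of its chromosome (x axis, Mb); labels give selected bins of all bins. The bar for 2 to 5 Mb stands at 24.6% and the others lie between 3.66% and 9.47%. The bar under 2 Mb includes bins that the chromosome end can cut short.

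The selected bins were richer in genes than most. They held a median of 10 protein-coding genes (range 1 to 33), against 5 in the other bins and 6 in the other bins with at most 2 IgG peaks. Bins with 10 to 14 Seh1 peaks and at most 2 IgG peaks also had a median of 10, and dense bins with over 2 IgG peaks 12.5. None of the 263 bins without a protein-coding gene was selected, and none of the 90 bins with 34 or more. By gene number the selected share was 2.74% of bins with 1 to 5 genes, 7.50% with 6 to 10, 10.0% with 11 to 20 and 8.61% with 21 to 33. A dense bin could still be almost empty of genes: the one on chromosome 2 from 169 to 170 Mb had 21 Seh1 peaks, no IgG peak and 1 protein-coding gene by midpoint, Tshz2, a zinc-finger transcription factor.

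The main annotation classes of the members had shares close to those of the other Seh1 peaks. Intergenic positions made up 1108 members, 52.9% (50.7 to 55.0%), against 53.6% (52.7 to 54.4%) of the 13499 other autosomal Seh1 peaks. Introns held 817, or 39.0% (36.9 to 41.1%), against 37.4%, and exons 113, or 5.39% (4.46 to 6.45%), against 5.45%. The remaining classes were small: 20 members at a transcription end site, 19 in a 3′ UTR, 7 in non-coding exons and 2 in a 5′ UTR. The promoter class held 10 members, 0.477% (0.229 to 0.876%), against 126 other peaks, 0.933% (0.778 to 1.11%). By gene span, 979 members had their centre in a protein-coding gene, 46.7% (44.6 to 48.9%) against 44.9% (44.1 to 45.8%). The bins of next lower density, with 10 to 14 Seh1 peaks and at most 2 IgG peaks, had fewer intergenic peaks, 47.1% (45.6 to 48.6%), and more intronic ones, 43.2% (41.7 to 44.7%).

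Few members lay near a start site. Only 21 members, 1.00% (0.621 to 1.53%), lay within 1 kb of a protein-coding transcription start site, against 214 other peaks, 1.59% (1.38 to 1.81%), although the selected bins had more genes. The intervals overlap, and with bins shifted by 500 kb the share was 1.57%. Within 5 kb the shares were 5.25% (4.33 to 6.29%) and 6.25% (5.85 to 6.67%), and 1040 members (49.6%) lay within 50 kb. The median distance to the nearest start site was 33.8 kb for members and 37.7 kb for the other peaks.

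Some repeat shares differed between members and the rest, with intervals that do not overlap, and the SINE share did not. The rule sets a minimum number of Seh1 peaks per bin, and those peaks are the denominator of these shares. The shares are therefore a description. No repeat was labelled at 1570 members, 74.9% (73.0 to 76.7%), against 59.1% (58.3 to 59.9%) of the other autosomal peaks. The authors' annotation names repeats in introns and intergenic sequence alone; among peaks of these classes the shares without a repeat were 72.7% and 55.1%. A LINE lay at the centre of 58 members, 2.77% (2.11 to 3.56%), against 10.9% (10.4 to 11.5%). An LTR element lay at 241 members, 11.5% (10.2 to 12.9%), against 17.4% (16.7 to 18.0%). SINEs lay at 144 members, 6.87% (5.82 to 8.04%), against 7.09% (6.66 to 7.54%). Bins with 10 to 14 Seh1 peaks and at most 2 IgG peaks were close to the members in part. Their LTR share was 11.2% (10.2 to 12.1%) and their share without a repeat 72.4% (71.0 to 73.7%). Their LINE share was 4.31% (3.72 to 4.96%) and their SINE share 8.57% (7.76 to 9.44%). In 77 of the 121 bins no member lay in a LINE, and no bin had more than 3 such members.

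The repeat families differed among themselves. ERVK, the family of the intracisternal A particles, fell on 93 members, 4.44% (3.60 to 5.41%), against 10.5% (9.95 to 11.0%). ERVL-MaLR, older LTR elements that include the MT and ORR1 groups, fell on 97 members, 4.63% (3.77 to 5.62%), against 4.36% (4.02 to 4.71%). Among SINEs, B4 elements were at 3.34% (2.61 to 4.20%) against 2.42% (2.17 to 2.70%), and Alu-related B1 elements at 2.10% (1.53 to 2.81%) against 3.36% (3.07 to 3.68%). By repeat name, L1Md elements, the youngest mouse L1 group, were at 3 members, 0.143% (0.0295 to 0.418%), against 422 other peaks, 3.13% (2.84 to 3.43%). Older Lx elements were at 26 members, 1.24% (0.812 to 1.81%), against 3.25% (2.96 to 3.57%). Intracisternal A particles were at 23 members, 1.10% (0.697 to 1.64%), against 3.19% (2.90 to 3.50%). The MT group was at 62 members, 2.96% (2.28 to 3.78%), against 2.74% (2.47 to 3.03%). The repeat names most frequent among members were B4A with 30, B4 and MTD with 16 each, ID_B1 with 15 and MTC with 14. These names were chosen after their counts were seen.

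Counted per bin, the selected bins differed from the other bins by unequal factors. A selected bin had 17.3 Seh1 peaks on average and another bin 5.92, a ratio of 2.93 that the rule itself sets. For peaks without a repeat the averages were 13.0 and 3.50, a ratio of 3.71. The ratio was 4.04 for B4 elements, on 70 members, and 3.11 for ERVL-MaLR, close to the total for SINEs at 2.84 and exons at 2.90, and only 1.24 for ERVK. LINE peaks numbered 0.479 per selected bin against 0.648, a ratio of 0.740, or 0.823 against the other bins with at most 2 IgG peaks.

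Repeat shares have all Seh1 peaks of a bin as their denominator, so they were set beside the number of peaks per Mb, in bins with at most 2 IgG peaks. Peaks without a repeat numbered 0.880 per Mb in bins with 1 to 4 Seh1 peaks, 4.19 with 5 to 9, 8.49 with 10 to 14, 12.2 with 15 to 19 and 16.1 with 20 to 27. LINE peaks numbered 0.624, 0.629, 0.505, 0.443 and 0.625 per Mb over the same bins, and ERVK peaks 0.575, 0.698, 0.511, 0.742 and 0.875. The number of LINE peaks per Mb thus lay between 0.443 and 0.629, and its value in the densest bins rests on 15 peaks in 24 bins. The lower LINE share of dense bins went with more peaks outside repeats. The LINE share was 24.0% in bins with 1 to 4 Seh1 peaks, 9.23% with 5 to 9, 4.31% with 10 to 14, 2.73% with 15 to 19 and 2.89% with 20 to 27. ERVK went through 22.1%, 10.2%, 4.35%, 4.57% and 4.05% over the same bins. ERVL-MaLR lay between 3.62% and 5.59%. B4 was at 1.46% in the sparsest bins and 3.53% in those with 10 to 14 Seh1 peaks, with 95% intervals that do not overlap. Gene number moves with peak density, so the LINE share was also read within bins of like gene number and at most 2 IgG peaks. It was 2.17% (1.05 to 3.96%) of members against 12.5% (11.3 to 13.7%) of other peaks in bins with 1 to 5 genes, 2.99% (1.86 to 4.53%) against 6.98% (6.05 to 8.01%) with 6 to 10, and 2.51% (1.49 to 3.93%) against 6.77% (5.78 to 7.88%) with 11 to 20. In bins with 21 to 33 genes it was 4.19% (1.93 to 7.80%) against 3.65% (2.46 to 5.20%), so the lower share was not seen there. In each of these classes the members still came from the bins with more Seh1 peaks, as the rule requires. The repeat content of the bins themselves was not measured.

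**Figure D3:**
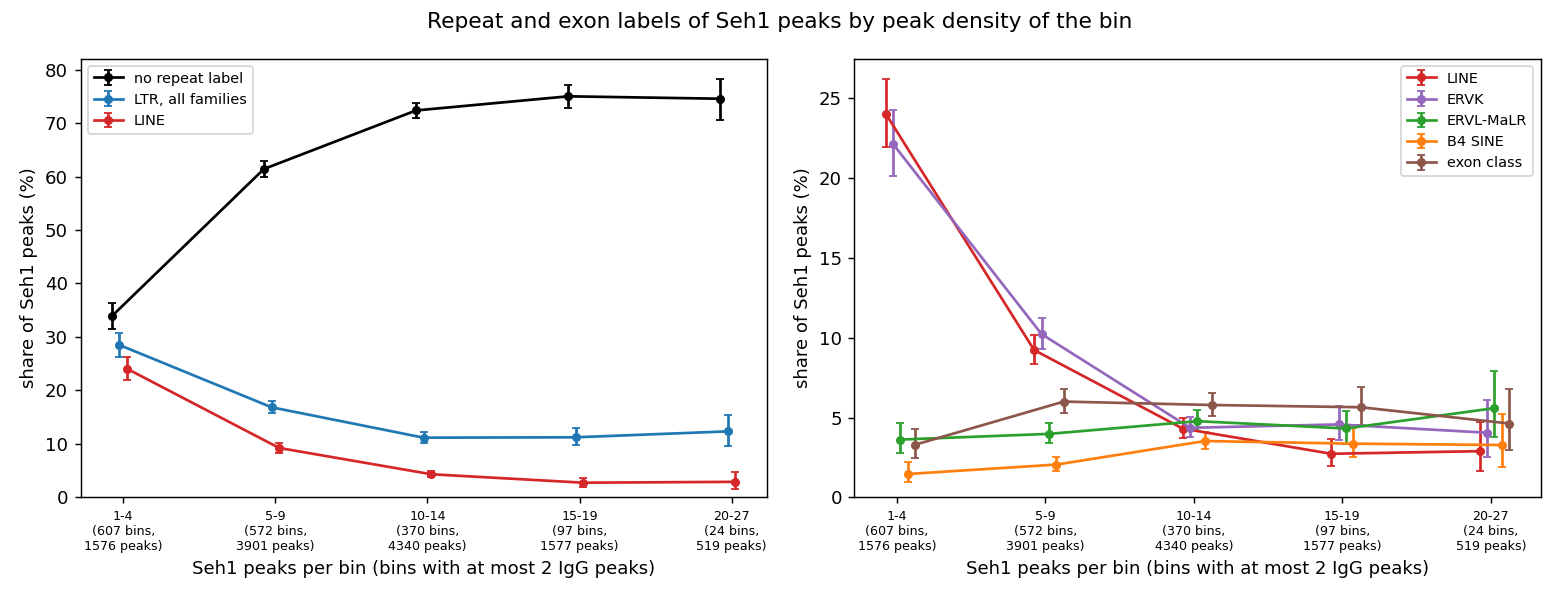
Share of Seh1 peaks (y axis, %) with each repeat or exon label in bins with at most 2 IgG peaks, by the number of Seh1 peaks in the bin (x axis); bars are 95% exact intervals and the 2 groups of bins on the right hold the members. The LINE share goes from 24.0% in the sparsest bins to 2.89% in the densest, while LINE peaks per Mb lay between 0.443 and 0.629 over all groups. ERVL-MaLR lies between 3.62% and 5.59%.

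Neighbouring members of a bin lay a median of 34.9 kb apart (95% order-statistic interval of the median 32.1 to 37.4 kb), with a range from 523 bp to 351 kb. The other autosomal peaks lay 69.6 kb apart, and those of bins with 10 to 14 Seh1 peaks 51.0 kb, as the rule on density requires. Divided by the mean of its bin, the median spacing was 0.664 for members, 0.690 in bins with 10 to 14 peaks and 0.756 for all others. The coefficient of variation of this scaled spacing was 1.03, 0.989 and 0.990. In a bin with few peaks each gap weighs much in its own mean, which draws the scaled value toward that mean. The order of these medians and coefficients therefore depends in part on the number of peaks per bin. In the dense bins with over 2 IgG peaks the scaled median was 0.474 and the coefficient 1.91, so their pooled peaks were far more bunched than the members. Pooling gives the fullest bins most weight. Of these 28 bins the fullest had 104 Seh1 and 101 IgG peaks, while 15 had only 3 IgG peaks. Among the medians of single bins the lowest spacing was 7.81 kb and the highest 74.2 kb.

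**Figure D4:**
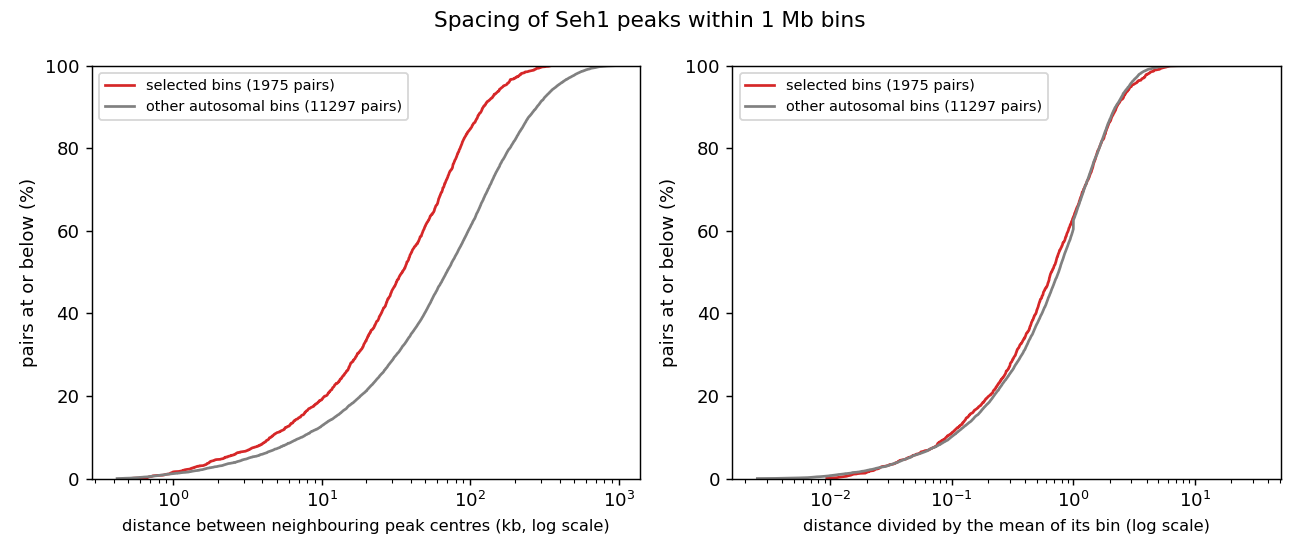
Cumulative share of neighbouring Seh1 peak pairs within a bin (y axis, %) by the distance of their centres (left, kb, log scale) and by that distance divided by the mean of its bin (right, log scale), for the 1975 pairs of selected bins (red) and 11297 pairs of other autosomal bins (grey). The medians are 34.9 and 69.6 kb on the left, and 0.664 and 0.756 on the right. The values on the right depend in part on the number of peaks per bin.

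Tight groups were few. Of the 1975 neighbouring pairs 31 were at most 1 kb apart (1.57%, against 1.20% in other bins), and 218 at most 5 kb (11.0% against 7.22%). The density that the rule requires raises such shares, and those of the chains below, so they are a description. Chains of at least 3 peaks with gaps of at most 5 kb took in 68 members in 21 chains, 3.24% of members, against 2.16% of the other peaks and 22.5% in the dense bins with over 2 IgG peaks. The longest chain had 6 peaks in 16.8 kb of chromosome 1, from 88211832 to 88228581. It began with the peak over the promoter and exon 1 of 5 of Ugt1a1, 722 bp wide, whose promoter bases are printed above. A peak of 243 bp in the Ugt1a1 intron followed 4754 bp on. Then came 3 intergenic peaks upstream of Mroh2a, a HEAT-repeat gene, with widths of 243, 722 and 572 bp, the first in an Lx8b LINE and the last in an RLTR13D3A1 LTR. The chain ended with a peak of 287 bp in a Mroh2a intron. Chains of 4 peaks lay near the non-coding gene BC039966 (chromosome 4, from 153796872 to 153804608) and near Tcp10c, a gene of the t-complex (chromosome 17, from 13385289 to 13394874). In Eif4g3, which encodes a translation initiation factor, 3 peaks fell within 1.96 kb, 1 of them in exon 14 of 35; their nearest start site was that of Mir6399.

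Member peaks were 243 to 894 bp wide, with a median of 270 bp, against 266 bp for the other autosomal peaks. The minimum of 243 bp was the width of 529 members, 25.2% (23.4 to 27.2%), against 27.5% (26.7 to 28.2%), and 76 members were at least 500 bp wide (3.63% against 2.59%). The median width within a bin ranged from 243 to 335 bp. The widest member lay in an intron of Rab43, a small GTPase of Golgi traffic (894 bp, chromosome 6 from 87800767 to 87801660). The next were intergenic and far from a start site: 861 bp at 160 kb upstream of Ajap1, an adherens junction gene, in a B4A repeat, and 825 bp at 204 kb upstream of 4930591A17Rik. Others of the 10 widest lay in introns of Hspa12a (819 bp, in an MTEb LTR, nearest to Mir3086) and Urb1 (781 bp), and in intergenic sequence nearest to Dicer1, the miRNA-processing ribonuclease (783 bp, 137 kb downstream), Gm10007 (770 bp), Gm7538 (753 bp) and Cd82, a tetraspanin (733 bp). The Ugt1a1 exon peak completes the list.

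The authors' nearest-start-site annotation gave the members to 873 genes, of which 701 were protein-coding. Of the 1351 protein-coding genes with their midpoint in a selected bin 673 were given a member, or 49.8%. Over all autosomal protein-coding genes 32.6% were given a Seh1 peak. The bins were chosen for many Seh1 peaks, so the higher share goes with the rule and is a description. Most genes had few: 392 had 1 member, and 104 had at least 5 and together held 729 members, 34.8% of all. Of these 104, 81 were given no IgG peak (77.9%), against 803 of all 873 (92.0%), in bins chosen for few IgG peaks. Their 729 members lay mostly far from the start site, with a median distance of 89.4 kb, and 442 of them were intergenic and 258 intronic.

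The gene with most members was the non-coding 4930465M20Rik on chromosome 12 with 17, all downstream and reaching 391 kb from its start site. It was followed by 4930591A17Rik on chromosome 2 with 15. Wwox, a tumour suppressor gene of 913 kb in a common fragile site, had 13, all in introns. They lay 40.6 to 504 kb from the start site and were 243 to 474 bp wide, with 2 of them in a B4A repeat, 1 in a B1 element and 1 in an MTB_Mm LTR. Tbc1d22a, a Rab GTPase-activating gene, also had 13, and Lrfn2, a synaptic adhesion gene, Ajap1 and the non-coding 2410018L13Rik had 12 each. The count of 2410018L13Rik is uncertain, because it lies in a part of chromosome 12 known for repeated gene copies and the sources used here do not say how multiply mapped reads were handled.

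Several genes of regulatory proteins had many members at a distance from the start site. Tshz3, a teashirt zinc-finger gene, had 11 members (16 Seh1 peaks in all), every one intergenic: 6 upstream at 43.1 to 388 kb and 5 downstream at 108 to 277 kb. Its paralogue Tshz2 had 9, with 5 upstream at 64.5 to 286 kb and 4 in introns at 14.7 to 130 kb. Foxk1, a forkhead repressor gene, had 9 of 15, all upstream at 65.8 to 384 kb; 5 of these lay inside Sdk1, a synaptic adhesion gene, 1 of them in exon 24 of 45. Vrk1, a chromatin kinase gene, had 7, of which 1 lay at the promoter, 301 bp upstream of a start site, and the others 6.93 to 204 kb away. Tfap2c, a transcription factor of neural crest and germ cells, also had 7.

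**Figure D5:**
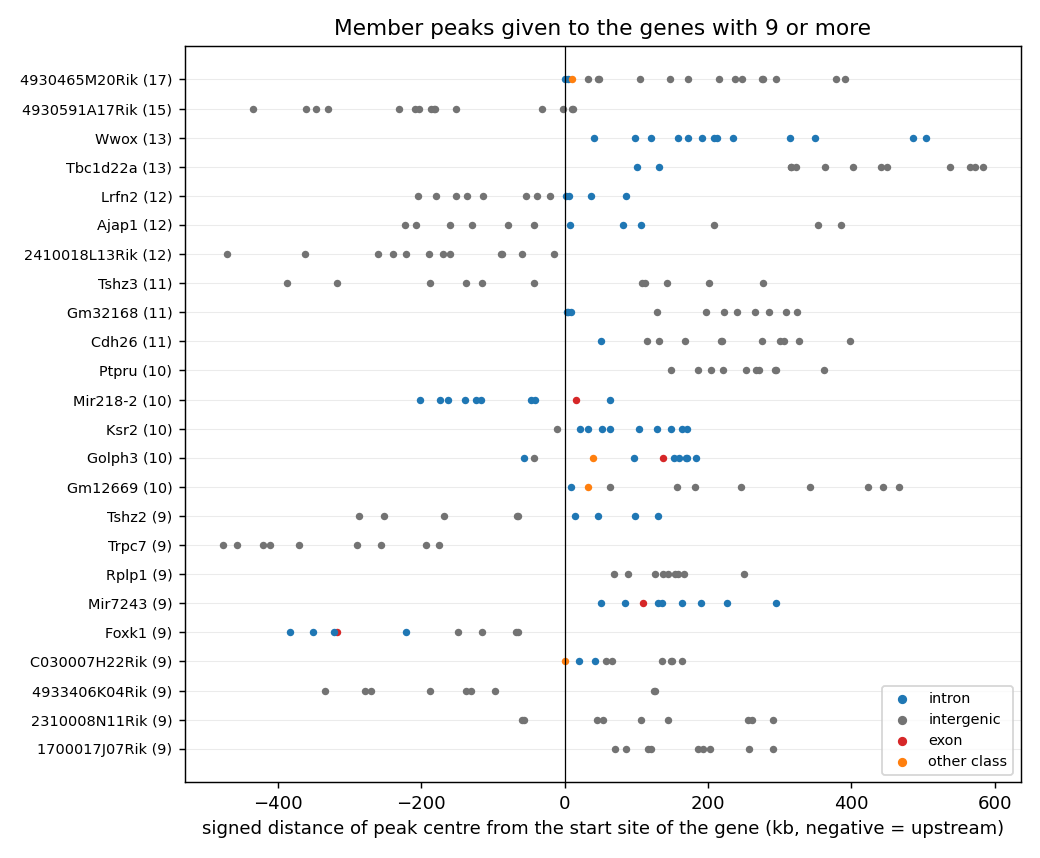
Each point is a member peak, placed by the signed distance of its centre from the start site of the gene it was given to (x axis, kb, negative is upstream), for the genes with 9 or more members (y axis, number in parentheses); colour gives the annotation class. The 13 peaks of Wwox are all intronic and downstream, and the 11 of Tshz3 are all intergenic and on both sides.

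The nearest start site is often not that of the gene a peak lies in. By gene span, 44 genes held at least 5 member centres, 308 in all. They were long, with a median of 287 kb and 32 of 44 over 200 kb, where the median of protein-coding genes in the selected bins was 21.9 kb. Those with the most were singled out after the counts were seen. Wwox held 13, as above. Ksr2, a scaffold of RAS signalling, held 12. Grik4, a kainate receptor subunit, held 11, all in introns, all without a repeat and 243 to 498 bp wide; the annotation gave 5 of them to Tbcel and 6 to Grik4. Pdzd2 also held 11. Slit3, an axon guidance ligand, Shank2, a postsynaptic scaffold, Phactr3, an actin regulator, and Pakap held 10 each, and Cacna1d, a calcium channel subunit, Srgap3, a Slit-Robo effector, and Ephb1, an ephrin receptor, held 9 each. Over their whole length, parts outside selected bins included, these 44 genes had 1.30 to 8.98 Seh1 peaks per 100 kb. A high count thus often came with a long gene. The selected bins averaged 17.3 Seh1 peaks per 1 Mb, and that range lies on both sides of this average. Wwox, with the most members, had 1.64 per 100 kb, from 15 Seh1 peaks over 913 kb. It reaches beyond its selected bin, so its rate is not comparable with an average of selected bins. Ksr2, the next, lies within a selected bin and had 3.39 per 100 kb, above that average.

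The members of Slit3 show how miRNA genes enter the gene list. All 10 were given to Mir218-2, a miRNA gene inside Slit3, at 16.0 to 202 kb from its start; 9 were intronic and 1 lay in exon 19 of 36 of Slit3. Likewise, all 9 members given to Mir7243 lay inside Ephb1. In total 70 members were given to 32 miRNA genes, and RefSeq mature sequences matched 29 of these genes. The mature miRNAs of Mir218-2 (chr11:35616840-35616860 and chr11:35616882-35616903, plus strand, GRCm38.p6) are shown because it was the miRNA gene given most members; capitals mark the seed, bases 2 to 8.
mmu-miR-218-5p: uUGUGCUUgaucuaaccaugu
mmu-miR-218-2-3p: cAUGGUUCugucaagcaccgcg
The member nearest to this miRNA gene lay 16.0 kb away, so no member covered either sequence.

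Within exons, members fell on 105 different genes. Nf1, the RAS-regulating neurofibromatosis gene, had 4 exon peaks, in exons 4, 21, 42 and 47 of 58, of which 3 had the minimum width of 243 bp and that in exon 21 was 431 bp wide. Reln, which encodes the reelin signal that guides cortical layering, had 3, in exons 26, 34 and 45 of 64, with widths of 243, 256 and 297 bp; the nearest start site of all 3 was that of Slc26a5. Hdac4, Wdfy4 and Umodl1 had 2 each. First exons held 7 of the 113 exon members (6.19%) and 49 of 736 other exon peaks (6.66%). Last exons, those of single-exon genes included, held 13 (11.5%) and 152 (20.7%). Besides Ugt1a1, wide exon peaks lay in exon 5 of 5 of Rbak, a zinc-finger repressor gene (597 bp), exon 6 of 59 of Wdfy4 (464 bp) and exon 21 of 28 of Nos1, the neuronal nitric oxide synthase (449 bp). Fbxw10 (443 bp, exon 10 of 13), Vps16 (442 bp, exon 22 of 24), Lrrc2 (432 bp, exon 3 of 9) and the corepressor Ncor1 (430 bp, exon 36 of 45) followed. Smok2a and Smok2b, near-identical kinase genes on chromosome 17, each had a peak of 243 bp in exon 2 of 3, so reads may not have been told apart between them.

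The members closest to a protein-coding start site belonged to genes of varied tissues. The peak at Tepp, a testis and prostate gene, was centred 3 bp upstream of the start, and that at Tagap 27 bp upstream. Downstream of the start lay those of Olfr12 (101 bp), an olfactory receptor gene, Ly6l (102 bp), Cass4 (109 bp), Oprd1, the delta opioid receptor (160 bp), Ugt1a1 (233 bp) and Nsd3, a histone methyltransferase (238 bp, in exon 1 of 23). Those of Ackr2 and Vrk1 were 287 and 301 bp upstream. The others of the 15 nearest were Bpifb6 (389 bp), the keratin Krt77 (406 bp), Prss54 (415 bp), Olfr1347 (422 bp) and the transporter Slc22a14 (467 bp upstream). None of these 15 was a gene of the neural lists below, which are too short for this to say anything about neural genes.

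The fullest bins had different leading genes. In the first, on chromosome 17, members were given to Tcp10c (6), Gm7168 (5) and Smok4a (4), all of the t-complex region. The bin from 88 to 89 Mb of chromosome 1 had 25, led by Mroh2a (5), Platr5 (4) and Ugt1a1 (2). That from 179 to 180 Mb of chromosome 2 also had 25, with 14 given to 4930591A17Rik, 6 to the cadherin gene Cdh4 and 4 to Taf4. Chromosome 17 from 48 to 49 Mb had 24, with 11 at Lrfn2, 5 at Unc5cl and 3 at 1700122O11Rik. The bin from 178 to 179 Mb of chromosome 2 had 23, with 11 at the cadherin gene Cdh26, 8 at Phactr3 and 2 at Sycp2. Of the others among the 12 fullest, that on chromosome 9 from 102 to 103 Mb (23 members) was led by Mir7243 (9), Slco2a1 (5) and Ryk (4), and that on chromosome 15 from 74 to 75 Mb (23) by Gm32168 (11), Mroh5 (3) and Ly6g6g (2). The bin on chromosome 6 from 86 to 87 Mb (22) was led by Asprv1 (4), Fam136a (4) and Snrnp27 (2), and that on chromosome 16 from 95 to 96 Mb (22) by Ets2 (5), 1600002D24Rik (4) and Erg (4), of which Ets2 and Erg encode ETS transcription factors. Of 5 bins with 21 members the rule took 3 by chromosome and position, led by the homeobox gene Alx4 (5) with Cd82 (4) and Tspan18 (3) on chromosome 2 from 93 to 94 Mb, by Tshz2 and 1700017J07Rik (9 each) with AY702102 (3) from 169 to 170 Mb, and by Ajap1 (12), BC039966 (7) and Lrrc47 (1) on chromosome 4 from 153 to 154 Mb.

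Of all autosomal protein-coding genes 6.57% had their midpoint in a selected bin. Of 23 genes that mark neural stem cells 2 lay in one, and both were given members. Hes1, the Notch target that keeps progenitors undifferentiated, had 3, all intergenic and downstream, at 18.6, 32.8 and 43.0 kb from its start and 314, 250 and 474 bp wide. Ccnd1, cyclin D1, had 2, intergenic, at 48.1 and 50.7 kb upstream and 346 and 243 bp wide. Of 14 autosomal neuronal genes, 2 lay in selected bins, Eomes and Bcl11b. Eomes, a factor of intermediate progenitors, had 1 member of 480 bp at 21.1 kb upstream. Bcl11b was given 2 Seh1 peaks, but no member. The bin of Bcl11b held 18 members, and the nearest-start-site annotation gave 17 of them to the non-coding 4930465M20Rik. Of 19 p53 targets and CDK inhibitors, Cdkn1b and Sesn2 lay in selected bins and neither was given a Seh1 peak. None of 13 autosomal nuclear pore and GATOR2 genes lay in a selected bin. Set against the 49.8% of protein-coding genes in these bins that were given a member, or the 6.57% of genes that lie in them, lists of this size say nothing about a group of genes.

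For gene families named by symbol prefix only counts are given, beside the 49.8% of protein-coding genes in the selected bins that were given a member. Among solute carriers (Slc) it was 16 of 24 genes in selected bins, among zinc-finger genes (Zfp) 12 of 28 and among miRNA genes 28 of 62. Keratin genes (Krt) had members at 4 of 24, olfactory receptors (Olfr) at 5 of 19, Serpin genes at 4 of 13, Ugt genes at 2 of 9, Cyp genes at 3 of 7 and Vmn1r genes at 1 of 1. The families also differ over all autosomes in the share of genes given any Seh1 peak, against 32.6% of protein-coding genes. It was 43.0% for Slc, 26.7% for Zfp, 25.7% for miRNA genes, which are not protein-coding, 15.2% for Krt and 11.1% for Olfr. For Serpin it was 38.7%, for Cyp 35.3%, for Ugt 27.3% and for Vmn1r 14.8%. The annotation gives each peak to 1 gene only, and the part of gene spacing in these shares was not tested. Of the Hox, Pcdh, Vmn2r, Defb and Speer families no gene lay in a selected bin, where 6.57% of all autosomal protein-coding genes lay; genes of such a family share few loci.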

How the data were processed

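Per the file headers, the authors annotated each peak with HOMER against mm10, and the submitters' processing notes name Bowtie2 and HOMER with no version and list human builds although the genes are mouse genes. The sources used here do not give the peak caller, its threshold or the read depth. Each deposited list gives chromosome, start and end of a peak, its class, nearest start site and a score; the deposited score is 0 for every peak and was not used, so no count test fits. Repeats were labelled by the authors only in introns and intergenic sequence.

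Bins, shares, exact intervals, spacing and gene counts were computed with Python 3.11.15, pandas 2.3.3, numpy 2.4.6 and scipy 1.17.1, with figures by matplotlib 3.10.9, and the steps were tested on simulated data. Gene spans and promoter sequences came from RefSeq tables of GRCm38.p6, without 328 autosomal genes listed below 3 Mb; 46714 autosomal genes remained, 20560 of them protein-coding. Of 2094 members with a gene identifier 2084 matched, and for 21 the start site lay off the gene. The members, lists and rules were chosen with earlier results of these data known. Named were the 3 leading genes of the 12 fullest bins, genes with at least 5 members, the 15 members nearest a protein-coding start site, the 10 widest members, the 10 widest in exons and list genes given a member; other names were chosen after their values were seen, and 1 of the exon peaks is not reported here. The prefix Hist, also fixed, matched no gene symbol in the table.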

Additional observations from a re-analysis of the deposited data

How the results depend on the processing

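Of 85 alternatives 66 stayed within the interval of a reported share or median, or within 1.5 times of a reported count, and 19 did not. With at least 12 Seh1 peaks per bin, 319 bins and 4633 members were selected, 49.5% of them intergenic, at a median spacing of 40.2 kb. With at least 20 these values were 24 bins, 519 members, 56.6% and 28.3 kb, and the minimum-width share was 22%. With no IgG peak allowed they were 59 bins, 1023 members and 56.6% intergenic, with a LINE share of 1.96%. Counting only peaks wider than the minimum left 34 bins, 563 members, 55.1% intergenic and a spacing of 39 kb, and a minimum-width share has no meaning there. The share within 1 kb of a protein-coding start site, 1.00%, was 1.57% with bins shifted by 500 kb, and the cause was not tested. Within 5 kb it was 5.25%, which must be at least as high because that window contains the smaller one. The exon, LTR and SINE shares and the number of genes per bin stayed within those limits under each alternative run, including equal weight for each bin, which was chosen after seeing the data.

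Depth is unknown and peaks carry no height, which limits every value here to the peaks that were called. No paired analysis was possible because each group has 1 library and no result comes from a test.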
